A study of Mus musculus with 11 samples.

Results

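Planar cell polarity is the alignment of cells within the plane of a tissue, and 10 mouse genes of this pathway are described here in sorted epidermal keratinocytes. They were chosen by name as known polarity and wound-closure genes linked to the transcription factor GRHL3, and make up 10 of the 24421 genes listed in the count tables. All 10 were listed in each of the 7 RNA libraries, and all 10 were among the 14045 genes with enough counts to be tested. The members are *Vangl1*, *Vangl2*, *Celsr1*, *Celsr2*, *Fzd6*, *Ptk7*, *Scrib*, *Dvl2*, *Arhgef19* and *Rhoa*.

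The study compared wounded with unwounded skin of mice labelled C57BL/6, given as C57BL/6J in the study's methods, and WT or GRHL3 KO, to ask how GRHL3 acts in keratinocytes at the wound front. By the study's methods, the mutants carried *Krt14*-Cre and floxed *Grhl3*, the controls were *Krt14*-Cre littermates with intact *Grhl3*, and the mice were 8 weeks old, of both sexes. Because *Krt14* drives the Cre, the deletion is directed to keratinocytes of the basal layer and their descendants. Wounds were made with a 4 mm punch, the 1 mm margin was taken at day 3, unwounded skin came from a distant site, and cells were sorted as CD49F-positive and negative for CD45, CD31 and TER119. RNA-seq gave 2 WT unwounded, 2 WT wounded, 1 *Grhl3*-cKO unwounded and 2 *Grhl3*-cKO wounded libraries, and ATAC-seq, which marks open chromatin, gave 1 peak list for each of the 4 conditions.

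In the core polarity pathway, the transmembrane proteins Vangl and Celsr and the Frizzled receptors sort to opposite sides of each cell and pass a direction from cell to cell through their contacts. Dishevelled proteins relay the signal in the cytoplasm, Scribble ties it to the cell's apical-basal polarity, and the small GTPase RhoA turns it into tension of the actin cytoskeleton once an exchange factor such as Arhgef19 has loaded it with GTP. In the skin these genes are known for aligning hair follicles and for closing epithelial sheets, in the embryo and after wounding.

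Each RNA library held between 13497283 reads, in the cKO unwounded library, and 16807451 reads, in WT unwounded replicate 2, assigned to genes. Levels are given as counts per 1000000 of these reads (CPM), which sets the libraries but not genes of different length on a common scale. *Grhl3* itself, the targeted gene, was counted 1893 and 1398 times in the WT unwounded libraries and 1831 and 1388 times in the WT wounded libraries. It was counted 1029 times in the cKO unwounded library and 1765 and 1491 times in the cKO wounded libraries. As CPM the wounded cKO libraries stood at 116 and 104, beside 110 and 90.0 in wounded WT. Unwounded, the cKO library stood at 76.2, the lowest of the 7, beside 122 and 83.2 in WT. The study checked the deletion by PCR between the loxP sites and by staining for the protein. A count over the whole gene does not separate targeted from remaining exons, and the libraries are called labelled *Grhl3*-cKO, or cKO for short.

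A single library stands apart from the others. The cKO unwounded library held 14854 counts of *Xist*, the RNA of the inactive X chromosome, and 0 counts of the Y-linked genes *Ddx3y*, *Eif2s3y*, *Kdm5d* and *Uty*. In the other 6 libraries *Xist* had between 3 and 32 counts and *Ddx3y* between 1368 and 1852. Within WT, *Xist* had 4 and 3 counts unwounded and 32 and 25 wounded, at an adjusted p of 0.0101 by edgeR's quasi-likelihood test. The cKO unwounded library is thus the single library of its group and the single one with high *Xist* and no Y-linked counts. Its group and this pattern therefore cannot be told apart. Every comparison with unwounded cKO rests on this library. For the sorted cells the study gives an n per genotype. Nothing in the labels says that the libraries of a group come from separate animals, so the P values measure only the spread between these samples.

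The label of keratinocytes was checked against markers. *Krt14*, a keratin of the basal layer, had between 12190 and 19440 CPM, and the 6 basal markers summed to between 30890 and 44750 CPM. The 4 adult globin genes that mark red cells were at 0 counts in all 7 libraries, and *Cd3e* of T cells was at 0 as well. By counting error alone this allows up to 0.222 CPM each in the shallowest library. Reads that did not align uniquely were not counted for any gene, which that limit does not cover. *Pecam1*, which encodes CD31, had between 1 and 100 counts.

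Per kilobase of annotated exon, *Rhoa* was the most abundant member, with a median of 140 CPM per kb over the 7 libraries and a range of 131 to 155. *Ptk7* followed with a median of 45.8 CPM per kb, *Celsr2* with 35.6 and *Celsr1* with 35.5. Further down came *Fzd6* with 23.6, *Scrib* with 23.2, *Vangl1* with 12.0, *Arhgef19* with 7.18, *Vangl2* with 5.80 and *Dvl2* with 3.42 CPM per kb. The ranges over the 7 libraries overlapped between *Ptk7* and *Celsr2*, between *Celsr2* and *Celsr1*, between *Fzd6* and *Scrib*, between *Vangl1* and *Arhgef19*, and between *Arhgef19* and *Vangl2*. They did not overlap at the other 4 steps of this order, from *Rhoa* to *Ptk7*, from *Celsr1* to *Fzd6*, from *Scrib* to *Vangl1* and from *Vangl2* to *Dvl2*. The exchange factor was thus present at a level per length well below that of its GTPase, and *Grhl3* itself had a median of 37.4 CPM per kb.

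Some of these counts share sequence with other genes, and whether the libraries were stranded is not stated. Of the exon bases of *Dvl2*, 19.3% overlap *Acadvl* on the opposite strand, a gene that is also in the count tables. For *Rhoa*, 14.75% of the exon bases overlap the antisense transcript *Gm37401*, which is not among the tested genes, and 1.46% overlap *Tcta*. For *Fzd6* the overlap with *Gm26704* is 3.47% and for *Vangl1* that with *Gm16160* is 0.12%, and the levels of *Dvl2* and *Rhoa* are therefore the least certain.

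The first comparison asked how wounding changed the polarity genes in WT keratinocytes. Relative to unwounded WT cells, 5 of the 10 members were lower in both wounded libraries than in both unwounded libraries, and 0 of 10 were higher in this way, but none of the 10 passed the test. Those 5 were *Vangl1*, *Celsr2*, *Ptk7*, *Scrib* and *Arhgef19*. Overlap here and below was read in CPM. With the libraries scaled as for the test, the groups of *Vangl1* and *Celsr2* overlapped. Over all 14045 tested genes, 18.3% were lower without overlap and 15.2% were higher without overlap. The median log2 fold change of the members was −0.097, with a range of −0.35 to 0.21, beside a median of 0.0034 over all tested genes. In sorted bulk cells, fewer cells of a type and less RNA per cell cannot be told apart.

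*Arhgef19*, the RhoA exchange factor, had 27.2 and 32.2 CPM in the unwounded and 23.5 and 22.1 CPM in the wounded WT libraries. Both wounded values lay below both unwounded values. The fitted log2 fold change was −0.35 with a standard error of 0.25, a fold of 0.783, and its 95% interval ran from −0.89 to 0.18. This is the largest drop among the members in WT, and its unadjusted P of 0.182 did not pass the test.

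Among the transmembrane proteins, *Vangl1* had 87.3 and 103 CPM in unwounded and 69.3 and 87.0 CPM in wounded WT skin. In CPM the highest wounded value lay just under the lowest unwounded value. Scaled as for the test, that order was reversed and the groups overlapped. The log2 fold change was −0.26 with an interval of −0.66 to 0.14, and −0.45 to −0.10 when a library was left out. *Vangl2*, the paralog whose loss leaves the neural tube open, had 30.9 and 38.6 CPM unwounded and 33.9 and 45.1 CPM wounded, and these ranges overlapped. Its log2 fold change was 0.21, with an interval of −0.28 to 0.70, and was −0.028 without WT wounded replicate 2. The paralogs thus had fitted values of opposite sign, and neither passed the test.

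*Celsr2*, an atypical cadherin that holds neighbouring cells together through its own kind, had 421 and 384 CPM in unwounded and 377 and 323 CPM in wounded WT libraries. *Celsr1*, its relative required for follicle alignment, had 386 and 359 CPM unwounded and 349 and 394 CPM wounded. The *Celsr2* groups did not overlap in CPM, but they did when scaled as for the test. Its log2 fold change was −0.18, with an interval of −0.51 to 0.15, and −0.29 to −0.088 when a library was left out. The *Celsr1* groups overlapped and gave 0.021, which became −0.0040 when the data were scaled by library size alone. *Ptk7*, a kinase-like receptor of the pathway, had 224 and 227 CPM unwounded and 210 and 194 CPM wounded. Its groups did not overlap, and its log2 fold change was −0.13 with an interval of −0.47 to 0.20. *Fzd6*, the Frizzled receptor that orients hair, ranged from 85.6 to 121 CPM over the 4 WT libraries with overlapping groups and a log2 fold change of 0.12.

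*Scrib*, the Scribble scaffold, had 138 and 148 CPM in unwounded and 131 and 111 CPM in wounded WT libraries. These groups did not overlap, and the log2 fold change was −0.21 with an interval of −0.58 to 0.15. It ran from −0.33 to −0.12 when a library was left out. *Dvl2*, a Dishevelled adaptor, ranged from 15.65 to 19.4 CPM over the 4 WT libraries with a log2 fold change of 0.032. *Rhoa* ranged from 288 to 340 CPM, with a log2 fold change of −0.061 and an interval of −0.39 to 0.27. For both of these the groups overlapped.

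By edgeR's quasi-likelihood test, 0 of the 10 members had an adjusted p under 0.05 in this comparison, against 4 of 14045 genes, which is 0.0285%. At an unadjusted P under 0.05 the members again numbered 0 higher and 0 lower, against 4.84% of all tested genes, of which 3.18% were higher and 1.67% lower. DESeq2 likewise called 0 members. The intervals show what the depth and the spread leave undecided: for *Rhoa* they span folds of 0.762 to 1.21, and for *Arhgef19* folds of 0.5395 to 1.14.

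**Figure D1:**
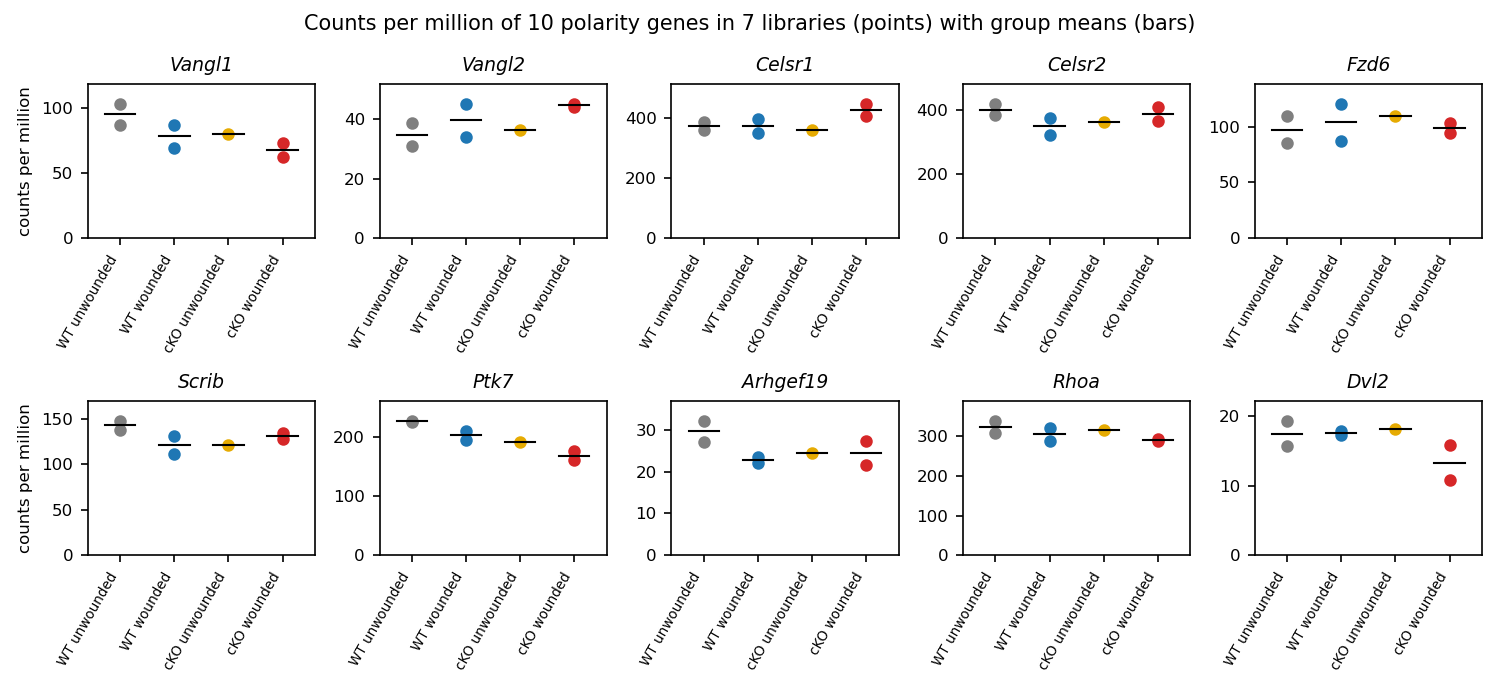
Level of each of the 10 polarity genes in CPM on a linear axis that starts at 0, by group, with a point for each of the 7 libraries and a bar at the group mean (2 libraries a group, 1 for cKO unwounded). For *Ptk7* the WT unwounded libraries sit at 224 and 227 and the cKO wounded libraries at 160 and 175.5, while for *Rhoa* all 7 libraries lie between 288 and 340.

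The second comparison asked how wounded cells labelled cKO differed from wounded WT cells. This comparison shares its WT libraries with the first. *Celsr1* was higher in both cKO libraries than in both WT libraries, *Ptk7* and *Dvl2* were lower in both, and the other 7 members overlapped. That is 1 member higher without overlap, against 13.8% of all tested genes, and 2 lower without overlap, against 17.2%. Scaled as for the test, *Celsr2* was also higher in both cKO libraries than in both WT libraries. The median log2 fold change of the members was 0.034, with a range of −0.37 to 0.22, beside −0.0092 over all tested genes. These counts are close to the share of all genes, and none of the 10 passed the test.

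*Celsr1* had 446 and 404 CPM in wounded cKO libraries beside 349 and 394 CPM in wounded WT libraries. The log2 fold change was 0.22 with a standard error of 0.16 and an interval of −0.12 to 0.56, at an unadjusted P of 0.189. It ran from 0.12 to 0.325 when a library was left out. *Ptk7* had 160 and 175.5 CPM in wounded cKO, below the 210 and 194 CPM of wounded WT. Its log2 fold change was −0.25 with a standard error of 0.16 and an interval of −0.58 to 0.086, at an unadjusted P of 0.1355. *Ptk7* was the member with the smallest P of the 4 comparisons, and its wounded cKO values were also the lowest of the 7 libraries.

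*Dvl2* had 15.8 and 10.8 CPM in wounded cKO and 17.9 and 17.3 CPM in wounded WT libraries. The lower cKO value came from 154 counts, and the log2 fold change of −0.37 had an interval of −1.03 to 0.29 and ran from −0.71 to −0.092 when a library was left out. *Arhgef19* had 21.55 and 27.2 CPM in wounded cKO, on either side of the WT values of 23.5 and 22.1. Its log2 fold change was 0.11 with an interval of −0.42 to 0.65, and it was −0.022 without cKO wounded replicate 2. The exchange factor was therefore neither higher nor lower in the wounded cKO libraries beyond their spread.

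*Vangl2* had 44.1 and 45.1 CPM in wounded cKO, close together and inside the WT span of 33.9 to 45.1. *Vangl1* had 62.6 and 73.2 CPM, with the WT libraries at 69.3 and 87.0. The log2 fold changes were 0.20 for *Vangl2* and −0.18 for *Vangl1*, and each changed sign without a WT wounded library. *Celsr2* gave 0.17, *Scrib* 0.14, *Fzd6* −0.049 and *Rhoa* −0.046 on the log2 scale. In CPM the groups of these 6 genes overlapped. Scaled as for the test they overlapped for all but *Celsr2*, which was higher in both cKO libraries. No order of the genotypes that holds on both scales can be read from these genes.

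With edgeR's quasi-likelihood test, 0 members and 0 of all genes, 0%, had an adjusted p under 0.05 in wounded cKO against wounded WT. Unadjusted P values under 0.05 were seen for 0 members in either direction, against 4.04% of all genes, with 1.96% higher and 2.08% lower. DESeq2 called 3 genes at an adjusted p under 0.05 by its own test, and 0 of them were members.

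The third comparison set wounded against unwounded cells labelled cKO, with the lone unwounded library assumed to vary like the other groups. *Celsr1*, *Celsr2*, *Scrib* and *Vangl2* were higher in both wounded libraries than in that library. *Dvl2*, *Fzd6*, *Ptk7*, *Rhoa* and *Vangl1* were lower in both, and *Arhgef19* lay on either side. Being on 1 side of a lone library is common: the 4 members compare with 35% of all tested genes that were higher and the 5 with 33.8% that were lower. The members' median log2 fold change was −0.076, with a range of −0.46 to 0.29, beside 0.022 over all tested genes.

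*Vangl2* had 36.2 CPM in the unwounded cKO library and 44.1 and 45.1 CPM in the wounded ones, a log2 fold change of 0.29 with an interval of −0.32 to 0.90. *Celsr1* had 360.1 CPM unwounded and 446 and 404 CPM wounded, a log2 fold change of 0.23 with an interval of −0.19 to 0.65. Leaving out a library gave 0.12 to 0.34 for *Celsr1*. Both of these transmembrane genes were thus on the higher side, within intervals that include 0. *Vangl1* had 80.3 CPM unwounded and 62.6 and 73.2 CPM wounded, a log2 fold change of −0.26. *Ptk7* had 191 CPM unwounded and 160 and 175.5 CPM wounded, a log2 fold change of −0.20. In CPM, *Vangl1* and *Ptk7* were lower without overlap in both wound comparisons, beside 18.3% of all tested genes in WT and 33.8% in cKO. The share of all genes lower in both was not computed. Scaled as for the test, the WT groups of *Vangl1* overlapped.

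*Dvl2* had 18.2 CPM in the unwounded cKO library and 15.8 and 10.8 CPM in the wounded ones, a log2 fold change of −0.46 with an interval of −1.25 to 0.34, and −0.80 to −0.17 when a library was left out. *Arhgef19* had 24.5 CPM unwounded and 21.55 and 27.2 CPM wounded, a log2 fold change of −0.022 with an interval of −0.68 to 0.64. For *Rhoa* the unwounded value was 316 CPM and the wounded values were 293 and 288 CPM, a log2 fold change of −0.13. The signalling end of the pathway, from the exchange factor to its GTPase, therefore showed no difference that passed the test here.

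In the cKO wound comparison, edgeR's quasi-likelihood test gave 0 members with an adjusted p under 0.05, against 0.947% of all genes, and 0 members with an unadjusted P under 0.05 in either direction, against 9.32%, with 5.28% higher and 4.04% lower. DESeq2 called 0 members here too. *Grhl3* had a log2 fold change of 0.52 at a P of 0.0611, with 76.2 CPM in the lone unwounded library. Its P was under 0.05 in 3 of 13 alternatives. Over all 13 its log2 fold change ran from 0.34 to 0.63, with 0.34 in a setting that left out no library.

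The fourth comparison asked whether wounding acted differently in cKO and WT cells, and tested the difference of the log2 fold changes. In CPM, *Celsr2* and *Scrib* were lower after wounding in WT and higher after wounding in cKO with no overlap in either. This was true of 5.98% of all tested genes. The reverse pattern was seen for 0 members and for 4.6% of all genes. Scaled as for the test, the WT groups of *Celsr2* overlapped and *Scrib* alone kept the pattern. *Celsr2* had 421 and 384 CPM, then 377 and 323 CPM after wounding in WT, and 365 CPM, then 368 and 410 CPM after wounding in cKO. *Scrib* had 138 and 148 CPM, then 131 and 111 CPM in WT, and 121 CPM, then 134.5 and 128 CPM in cKO. In both genes the unwounded cKO library lay below both unwounded WT libraries.

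The difference in log2 fold change was 0.26 for *Celsr2*, with a standard error of 0.25, an interval of −0.27 to 0.78 and a P of 0.315. For *Scrib* it was 0.32, with a standard error of 0.27, an interval of −0.25 to 0.89 and a P of 0.2545. Neither passed the test of the difference. *Arhgef19* had the largest positive difference, 0.33 with an interval of −0.52 to 1.19, close to that of *Scrib*. It ran from 0.20 to 0.46 when a library was left out. *Dvl2* had the largest negative difference, −0.49 with an interval of −1.52 to 0.55, which ran from −0.83 to −0.21 when a library was left out. Over the 10 members the median difference was 0.043, beside 0.010 over all tested genes. For the difference, edgeR's quasi-likelihood test found 0 members at an adjusted p under 0.05, against 0.185% of all genes, and 0 members at an unadjusted P under 0.05 in either direction, against 6.77%, with 3.83% higher and 2.94% lower. DESeq2 called 0 members for the difference as well.

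**Figure D2:**
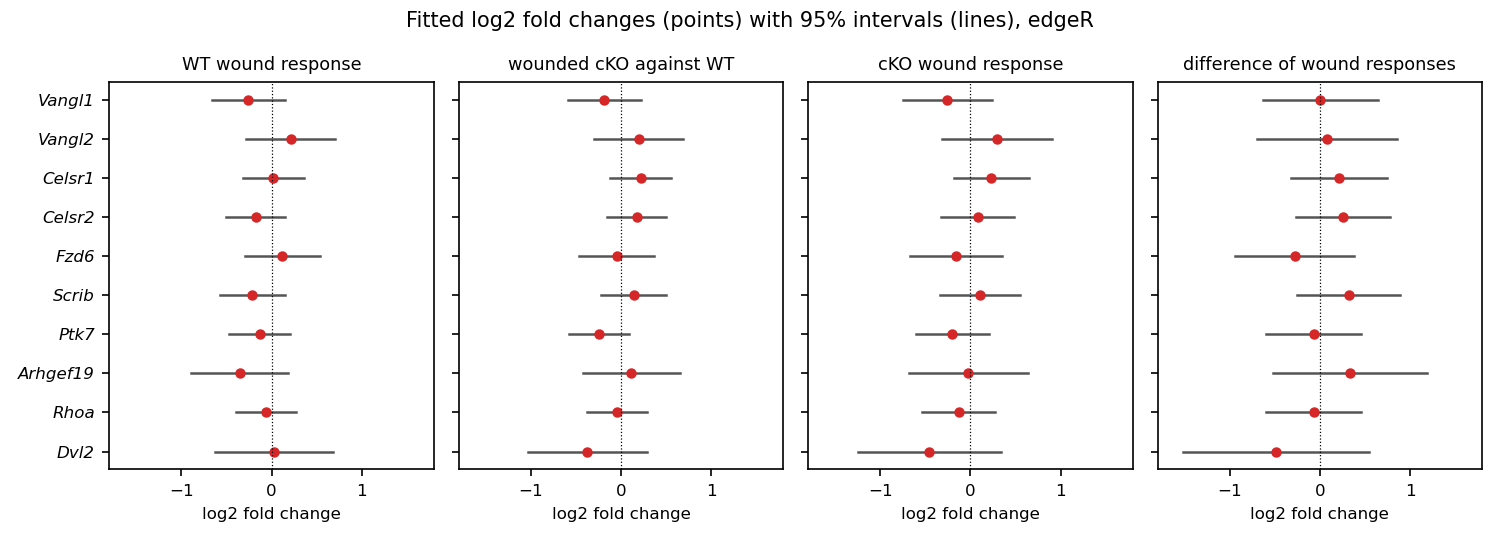
Fitted log2 fold change of each of the 10 polarity genes (points) with its 95% interval (lines) in the 4 comparisons, on a common axis with a dotted line at 0. Every interval includes 0, and the widest is that of *Dvl2* for the difference of wound responses, from −1.52 to 0.55.

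The members did not move together over the libraries. Each gene's highest library exceeded its lowest by a factor that ran from 1.18 for *Rhoa* to 1.797 for *Dvl2*. Of the 45 pairs of members, 23 had a positive and 22 a negative Pearson correlation of log2 CPM over the 7 libraries, with a median of 0.0099. The highest was 0.754, between *Vangl1* and *Rhoa*, and the lowest was −0.820, between *Vangl2* and *Ptk7*. These are descriptions over 7 libraries that share their groups, and they carry no test.

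The pattern of *Arhgef19* over the 7 libraries was most like that of *Tcf3*, *Hipk2* and *Zfand2b* among 8885 genes with a mean log2 CPM of at least 3. Pearson's r was 0.9555 for *Tcf3*, which encodes E proteins of the helix-loop-helix family, with a Spearman's rho of 0.929. For *Hipk2*, a nuclear kinase, r was 0.949 and rho 0.893, and for *Zfand2b* r was 0.944 and rho 0.929. *Tcf3* had 116 and 129 CPM in unwounded WT, 108 and 100.4 CPM in wounded WT, 102 CPM in unwounded cKO, and 93.3 and 114 CPM in wounded cKO libraries. In CPM it was, like *Arhgef19*, highest in WT unwounded replicate 2 and lowest in cKO wounded replicate 1. Scaled as for the test, *Arhgef19* was instead lowest in WT wounded replicate 2. Over the 7 libraries 16 genes exceeded an r of 0.9, and since these 3 were picked for their r, the values carry no test.

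Beyond the members, 62 other genes of the pathway were listed and 60 of them were tested, while *Celsr3* and *Fat3* had too few counts and *Dchs2* and *Diaph1* were not in the tables. In wounded against unwounded WT cells, 2 of the 60 had an unadjusted P under 0.05 and were higher, and 0 were lower, beside 3.18% and 1.67% of all tested genes. *Myh9*, the heavy chain of non-muscle myosin that RhoA signalling sets to work, had 2579 and 2562 CPM unwounded and 3223 and 3034 CPM wounded. *Wnt5a*, a Wnt ligand of the polarity pathway, had 9.88 and 12.3 CPM unwounded and 11.2 and 26.7 CPM wounded. *Myh9* was higher in both wounded libraries, whereas for *Wnt5a* a single wounded library was high and the groups overlapped. The log2 fold change of *Myh9* was 0.31 at a P of 0.0341, and P lay between 0.0681 and 0.151 when any of the 4 compared libraries was left out. That of *Wnt5a* was 0.80 at a P of 0.0468, and it was 0.025 without WT wounded replicate 2. Among these 60 genes, 14 were higher and 10 lower without overlap, beside 15.2% and 18.3% of all tested genes.

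In wounded cKO against wounded WT cells, 1 of the 60 had an unadjusted P under 0.05 and was higher, and 2 were lower, beside 1.96% and 2.08% of all tested genes. *Fat4*, a large cadherin of the Fat and Dachsous branch, had 6.96 and 8.96 CPM in cKO and 3.603 and 3.57 CPM in WT libraries. *Arhgef2*, another RhoA exchange factor, had 14.3 and 18.8 CPM in cKO and 26.0 and 24.2 CPM in WT libraries. *Myh9* had 2568 and 2475 CPM in cKO, below both wounded WT libraries. In each of these 3 genes the groups did not overlap, as was so for 7 higher and 15 lower of the 60, beside 13.8% and 17.2% of all tested genes. The log2 fold changes were 1.17 for *Fat4* at a P of 0.0285, −0.58 for *Arhgef2* at a P of 0.0442 and −0.29 for *Myh9* at a P of 0.0461. Of 14 alternatives, P exceeded 0.05 in 3 for *Fat4*, in 8 for *Arhgef2* and in 8 for *Myh9*. These included DESeq2 and no filter for *Arhgef2*, no filter and at least 10 counts in every library for *Myh9*, and the compared libraries alone for both genes. When a library was left out the log2 fold change ran from 1.02 to 1.32 for *Fat4*, −0.75 to −0.42 for *Arhgef2* and −0.34 to −0.22 for *Myh9*.

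In wounded against unwounded cKO cells, 2 of the 60 had an unadjusted P under 0.05 and were higher, and 3 were lower, beside 5.28% and 4.04% of all tested genes. *Fzd3*, a Frizzled receptor that acts with *Fzd6* in the core pathway, had 58.0 CPM in the unwounded cKO library and 24.4 and 28.6 CPM in the wounded ones. In the 4 WT libraries *Fzd3* had between 28.6 and 32.8 CPM, so the unwounded cKO library was the high one of the 7. *Fzd7* had 216 CPM in that library and 117 and 144 CPM in wounded cKO libraries. *Rhob*, a paralog of *Rhoa*, had 168 CPM there and 130 and 103 CPM in wounded cKO libraries. *Cit*, the kinase citron that binds RhoA, ran the other way, with 26.75 CPM unwounded and 49.0 and 47.5 CPM wounded. *Myh9* had 1879 CPM unwounded, the lowest of the 7 libraries, and was thus higher after wounding in cKO as in WT. All 5 differences rest on the lone library that also carries *Xist*, and its part in them cannot be told apart from that of the unwounded state.

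The log2 fold change of *Fzd3* was −1.14 with an interval of −1.72 to −0.57, a P of 0.000671 and an adjusted p of 0.06115 by edgeR's quasi-likelihood test. Its adjusted p ran from 0.00605 to 0.312 over the alternatives and was 0.0194 by DESeq2 and 0.0124 with no filter on low counts in edgeR. *Fzd7* gave −0.74 at a P of 0.00483, *Rhob* −0.53 at a P of 0.0381, *Cit* 0.84 at a P of 0.00825 and *Myh9* 0.42 at a P of 0.0234. None of the 5 had an adjusted p under 0.05 in the main edgeR test, though with no filter the adjusted p of *Fzd7* was 0.0298 in edgeR. For *Rhob*, P was 0.21 without cKO wounded replicate 2, and for *Myh9* it was 0.0926 with the compared libraries alone. Of the 60 genes, 16 were higher and 30 lower than the lone library in both wounded ones, beside 35% and 33.8% of all tested genes.

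For the difference between the wound responses, 1 of the 60 was higher in cKO and 3 were lower at an unadjusted P under 0.05, beside 3.83% and 2.94% of all tested genes. The difference was 0.99 on the log2 scale for *Cit* at a P of 0.0125, −1.07 for *Fzd3* at a P of 0.00886, −0.92 for *Rhob* at a P of 0.00858 and −0.76 for *Prickle2* at a P of 0.0268. *Prickle2*, a cytoplasmic partner of Vangl proteins, had 71.6 and 60.2 CPM, then 92.2 and 66.8 CPM in WT, and 108 CPM, then 79.0 and 77.8 CPM in cKO libraries. *Rhob* was the gene of these 4 whose groups moved in opposite directions without overlap, with 104.5 and 93.8 CPM, then 145 and 109.5 CPM in WT. Such a reversal, higher in WT and lower in cKO, was seen in 6 of the 60 genes, against 4.6% of all tested genes, and its opposite in 0, against 5.98%. For *Prickle2*, P lay between 0.0670 and 0.133 in 3 of 12 alternatives, each without a library, and the difference was −0.51 without WT wounded replicate 1. The adjusted p was 0.482 for *Rhob*, 0.491 for *Fzd3*, 0.527 for *Cit* and 0.643 for *Prickle2* by edgeR's quasi-likelihood test.

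The other genes with the most counts of their group were ranked over all libraries together. They were *Fzd7* of the core pathway, *Wnt4* of the ligands, *Intu* of the effectors at cilia and *Fat1* of the Fat and Dachsous branch. The rest were *Pard3* of the apical-basal partners, *Arhgef12* of the RhoA regulators and *Myh9* of the effectors. In some single libraries, such as unwounded cKO, *Fat2* exceeded *Fat1* and *Prkci* exceeded *Pard3*. *Wnt4* ranged from 81.7 to 161 CPM over the 7 libraries and *Intu* from 9.59 to 19.0 CPM. *Fat1* ranged from 555 to 906 CPM, *Pard3* from 181 to 225 CPM and *Arhgef12*, a further RhoA exchange factor, from 472.5 to 614 CPM. None of *Wnt4*, *Intu*, *Fat1*, *Pard3* and *Arhgef12* had a P under 0.05 in any of the 4 comparisons. *Grhl1*, the Grainyhead-like gene with the most counts over all libraries together, ranged from 143 to 221 CPM. With *Grhl2* and *Grhl3* it made 3 related factors of which 0 had a P under 0.05.

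Markers of keratinocyte states were summed as well. The gene named with the most counts of a list is the one over all libraries together. In a single library another gene can lead, as *Krt10* did over *Krt1* in unwounded cKO. The 6 suprabasal markers, with the most counts from *Krt1*, summed to 6305 and 6958 CPM in unwounded WT, 3705 and 5405 CPM in wounded WT, 9529 CPM in unwounded cKO, and 6736 and 8410 CPM in wounded cKO libraries. At an unadjusted P under 0.05, 3 of the 6 were lower in wounded WT, 4 of the 6 were higher in wounded cKO than in wounded WT, and after wounding in cKO 1 was higher and 3 lower. Of all tested genes 1.67% were lower in wounded WT, 1.96% were higher in wounded cKO than in wounded WT, and 5.28% were higher and 4.04% lower after wounding in cKO. By edgeR's quasi-likelihood test 0 of the 6 had an adjusted p under 0.05 in any comparison. These are genes of keratinocytes that have left the basal layer. The 5 wound keratinocyte markers, with the most counts from *Krt16*, summed to 4469 and 5570 CPM in unwounded WT and 6523 and 9689 CPM in wounded WT, and to 2623 CPM in unwounded cKO and 7025 and 4850 CPM in wounded cKO libraries. Of these, 4 were higher after wounding in WT, 3 were higher after wounding in cKO, and 2 were lower in wounded cKO than in wounded WT, beside 3.18%, 5.28% and 2.08% of all tested genes. An adjusted p under 0.05 by edgeR's quasi-likelihood test was reached by 1 of the 5, after wounding in cKO.

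The 8 hair follicle markers, with the most counts from *Krt15*, summed to 5758 and 5108 CPM in unwounded WT, 4499 and 3611 CPM in wounded WT, 6661 CPM in unwounded cKO, and 3640 and 4500 CPM in wounded cKO libraries. After wounding, 4 of the 8 were lower in WT and 5 of the 8 in cKO at an unadjusted P under 0.05, beside 1.67% and 4.04% of all tested genes. At an adjusted p under 0.05 by edgeR's quasi-likelihood test these were 0 in WT and 3 in cKO, and *Shh* was at 0 counts in the unwounded cKO library. The 6 basal markers summed to 34660 and 39050 CPM, then 30890 and 44750 CPM in WT, and to 37010 CPM, then 42910 and 36240 CPM in cKO libraries. Follicle keratinocytes express polarity genes as well, and the part of these shifts in the members' values was not tested.

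Markers of cells that the sort should remove were low. The 6 endothelial markers summed to 1.55 and 2.14 CPM in unwounded WT, 21.0 and 5.90 CPM in wounded WT, 0.815 CPM in unwounded cKO, and 7.82 and 7.91 CPM in wounded cKO libraries. *Pecam1* had the most counts of these over all libraries together, though *Cdh5* had more in both wounded WT libraries. The 6 fibroblast markers summed to 28.7 and 14.5 CPM, then 19.6 and 46.6 CPM in WT, and to 11.04 CPM, then 25.6 and 37.8 CPM in cKO libraries. Over all libraries together *Col3a1* had the most counts of these, though in unwounded cKO it had 4 beside 103 of *Col1a2*. The 6 leukocyte markers summed to 4.003 and 14.9 CPM, then 12.6 and 32.95 CPM in WT, and to 10.15 CPM, then 13.9 and 15.8 CPM in cKO libraries, with the most counts from *Cd74*. *Ptprc*, which encodes CD45, was at 0 counts in 5 of the 7 libraries. The 5 melanocyte markers summed to 2.52 and 1.07 CPM, then 9.55 and 5.51 CPM in WT, and to 2.15 CPM, then 6.175 and 7.07 CPM in cKO libraries. *Dct* had the most counts of these over all libraries together, though another gene led in each unwounded library. Erythroid *Alas2* reached 0.91 CPM at most. Sums of endothelial and melanocyte markers were higher in each wounded library than in the unwounded ones, and those of fibroblast and leukocyte markers were so in cKO alone. At an unadjusted P under 0.05, the genes higher after wounding were 3 of 5 endothelial, 1 of 5 fibroblast, 2 of 5 leukocyte and 2 of 4 melanocyte markers tested in WT, beside 3.18% of all tested genes. In cKO they were 2, 3, 1 and 1 in the same order, beside 5.28%, and none was lower in either. By edgeR's quasi-likelihood test 1 of these, a fibroblast marker in cKO, had an adjusted p under 0.05. The part of these cells in the members' values was not tested.

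Open chromatin was described from 1 peak list per condition, which allows no test, and by the study's legend a list stands for 1 sample made of 4 wounds of 2 mice. The lists held 10769 peaks in unwounded WT, 36872 in wounded WT, 29364 in unwounded cKO and 22474 in wounded cKO cells. The name of the wounded cKO list lacks a mark for calling without a control sample that the other 3 carry, so whether all were called alike is not known. A peak in the gene or within 5 kb of it was found for 5 of the 10 members in unwounded WT, against 50.7% of 13508 tested genes with a single annotated position. The members with such a peak numbered 8 in wounded WT, against 84.6%, 9 in unwounded cKO, against 81%, and 7 in wounded cKO, against 68.8%. The longest list, of wounded WT, was thus not the one with the most members, but this order did not hold under stricter settings. At a −log10 q of at least 2, wounded WT had 8 members, against 79.9%, and unwounded cKO 7, against 69.8%. At a fold enrichment of at least 4 each had 6, against 69.3% and 58.1%. With every list shortened to 10769 peaks the members numbered 5, 4, 4 and 5, against 50.7%, 45.1%, 47.5% and 45.3%.

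Within 500 bases of a gene's start in the basic annotation, a peak was listed for a smaller share of the members than of all tested genes. In unwounded WT 1 member, *Rhoa*, had such a peak, against 39.1% of all genes. In wounded WT there were 4, *Vangl1*, *Vangl2*, *Fzd6* and *Rhoa*, against 70.2%. Unwounded cKO also had 4, *Vangl2*, *Celsr1*, *Fzd6* and *Rhoa*, against 65.9%, and the same 4 had a start peak in wounded cKO, against 56%. Starts outside the basic annotation were left out for members and all genes alike, so the *Arhgef19* region described below is not among these. No test was made of the difference in share, and the members' median gene length was 29.65 kb beside 23.5 kb.

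Merging the peaks over the 4 lists gave 24 regions near members, of which 12 lay in introns by their middle, 5 at a start, 4 downstream and 3 upstream. Of these regions, 4 were in all 4 lists and 7 in all but unwounded WT, the shortest list. Another 3 were listed in wounded WT alone, 2 in unwounded cKO alone and 1, in an intron of *Ptk7*, in unwounded WT alone. *Scrib* had no peak within 5 kb in any list.

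The region at *Arhgef19*, chr4:141239123-141239692 on mm10, was listed in wounded WT with a fold enrichment over local background of 4.70, in unwounded cKO with 4.40 and in wounded cKO with 3.98, and not in unwounded WT. It spans the start, at position 141239499, of a protein-coding transcript outside the basic annotation, and the middles of its peaks lie between 3.40 and 3.50 kb before the start of the basic transcript. The wounded WT list is the longer, with 36872 peaks beside 10769, and when cut to 10769 it no longer held this region, so wounding and list length cannot be told apart here. A second region downstream of *Arhgef19*, chr4:141260087-141260274, was listed in unwounded cKO alone, with a fold enrichment of 3.18.

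At *Vangl2* an intron region, chr1:172018966-172020277, was in all 4 lists, with fold enrichments of 5.47 in unwounded WT, 5.005 in wounded WT, 5.63 in unwounded cKO and 6.12 in wounded cKO cells. This was the highest value near any member. The region at the start of *Vangl2*, chr1:172026564-172027542, was in all lists but unwounded WT, with values of 3.46, 3.10 and 3.86. *Vangl1* had 3 intron regions in the same 3 lists, and a region at its start in wounded WT alone with 3.34. Neither Vangl gene had a start peak in unwounded WT, which is also the list with the fewest peaks.

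*Celsr2* had a region in all 4 lists as well, chr3:108401848-108402449, with 4.44 in unwounded WT, 5.27 in wounded WT, 5.64 in unwounded cKO and 4.55 in wounded cKO cells. *Celsr1*, the longest member at 135 kb, had 2 intron regions in the wounded WT list, with values of 3.76 and 3.01. The first of them was also listed in unwounded cKO with 3.125. A region at the start of *Celsr1*, chr15:86034015-86034501, was listed in unwounded cKO with 3.23 and in wounded cKO with 4.69. It was in neither WT list. *Fzd6* had a single region, at its start, in the 3 longer lists with values of 3.53 to 4.55.

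*Rhoa* had a start region, chr9:108305737-108306464, in all 4 lists with fold enrichments between 3.96 and 4.32, and this window also holds the start of *Tcta*. A second region listed in all 4 conditions, downstream of *Rhoa*, lies nearest to the start of *Gpx1*. *Dvl2* had 2 upstream regions, both nearest the start of *Phf23* and not that of *Dvl2*. The same holds for the 2 regions downstream of *Celsr2*, which lie nearest to *Psrc1*. *Ptk7* had peaks in the unwounded lists of both genotypes and in neither wounded list, with 4.11 in WT and 3.37 in cKO cells for the region that both unwounded lists share. With the lists cut to 10769 peaks, unwounded WT kept its 2 *Ptk7* peaks and unwounded cKO kept 0 of 2.

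**Figure D3:**
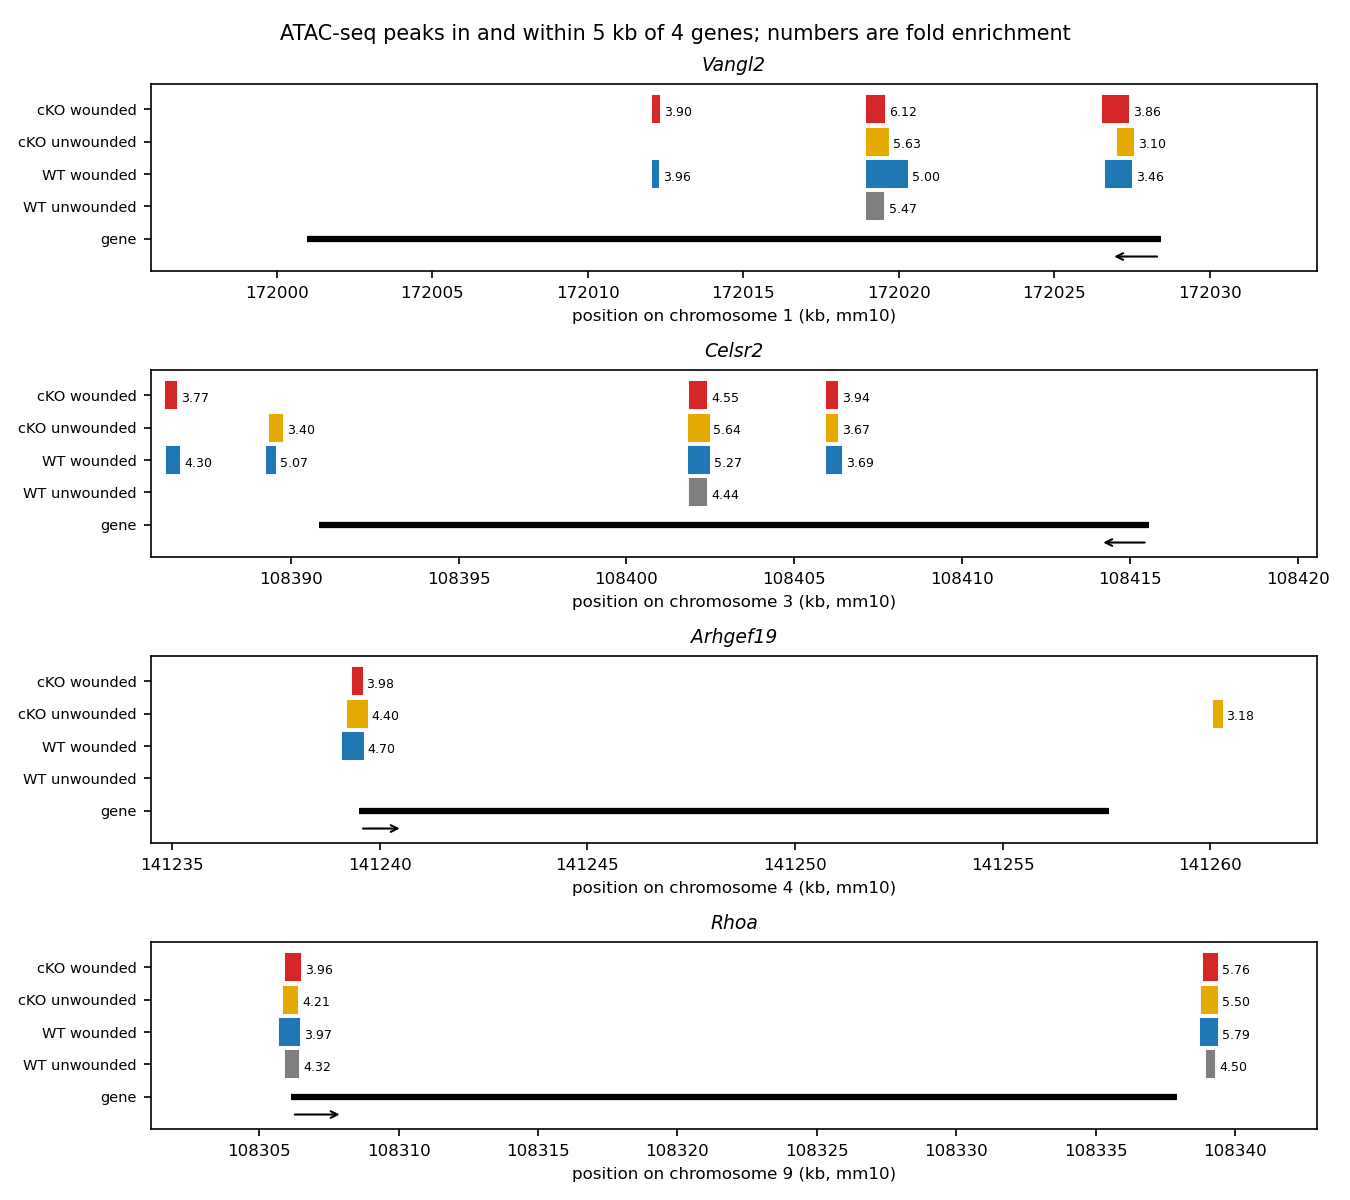
ATAC-seq peaks (boxes, drawn to scale by position in kb on mm10) in and within 5 kb of *Vangl2*, *Celsr2*, *Arhgef19* and *Rhoa* in the 4 conditions, with the fold enrichment beside each box, the gene span as a black bar and an arrow for its direction. *Vangl2* and *Celsr2* have an intron region in all 4 lists, and the region at *Arhgef19* is missing from the unwounded WT list.

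The core letters to which Grainyhead-like factors bind were searched as AACCGGTT, AACCAGTT and AACAGGTT on both strands. They were found in 0 of 7 member promoters of the RefSeq table, which covers 6 of the 10 members on GRCm38.p6 from 250 bases before to 50 after the start, and in 1.88% of all 32851 promoters. In the central 300 bases of peaks near members they were found in 0 of 7 in unwounded WT, 0 of 19 in wounded WT, 0 of 18 in unwounded cKO and 0 of 14 in wounded cKO cells. Of all peaks in these lists, 2.94%, 3.64%, 3.42% and 3.40% held them. The looser letters AACNNGTT, which include all 3 words and were chosen after the first search, were also absent from these windows and were present in 4.20% of promoters and 5.57% to 6.54% of peaks. A missing match says only that the letters are not in the window.

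Other letters were present. TGANTCA takes in TGAGTCA and TGACTCA, the words bound by AP-1 factors, and also TGAATCA and TGATTCA. It was in 2 of 7 member promoters, as TGAATCA at *Arhgef19* and TGACTCA at *Dvl2*, against 7.81% of all promoters. Of the member peaks, 1 of 7, 2 of 19, 1 of 18 and 3 of 14 held it, in the order above. Of all peaks, 24.4%, 27.7%, 27.3% and 27.8% held it. GGGCGG, the GC box, was in 5 of 7 member promoters, against 35.7%. It was in 4 of 7, 8 of 19, 8 of 18 and 6 of 14 member peaks, against 40.7%, 26.0%, 29.1% and 31.2%. The member promoters held between 56.7% and 78.7% G or C, beside a median of 52.7% over all promoters. The part of this base content in the counts of any of the words was not tested. Both strands were searched, TGANTCA and the GC box share no stretch, and these words too were chosen after the first search. A match is a description and not a site.

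Sequences of 4 region centres, 5′ to 3′ on mm10, plus strand, are printed to show what lies in the regions described. The GC box or TGANTCA on either strand is in capitals. The *Arhgef19* window, chr4:141239216-141239515, is shown for the exchange factor's own region and holds 2 GC boxes.
Arhgef19 upstream region: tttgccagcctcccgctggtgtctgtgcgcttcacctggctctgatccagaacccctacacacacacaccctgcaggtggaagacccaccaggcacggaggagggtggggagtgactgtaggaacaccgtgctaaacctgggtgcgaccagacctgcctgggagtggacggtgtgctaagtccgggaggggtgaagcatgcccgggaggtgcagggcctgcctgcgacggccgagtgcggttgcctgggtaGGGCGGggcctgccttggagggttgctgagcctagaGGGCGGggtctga

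Intron regions are shown for the Vangl genes and *Celsr2*. The *Vangl1* window, chr3:102159583-102159882, holds TGAGTCA, and the *Celsr2* window, chr3:108401996-108402295, holds TGACTCA and a GC box and covers 108 coding bases of an exon. Another *Vangl1* intron region had a higher fold enrichment in wounded WT, 5.13 beside 4.01, and its centre holds none of the letters searched. The *Vangl2* window, chr1:172019101-172019400, has the highest fold enrichment near any member, holds none of the letters searched and contains a run of repeated ca.
Vangl1 intron region: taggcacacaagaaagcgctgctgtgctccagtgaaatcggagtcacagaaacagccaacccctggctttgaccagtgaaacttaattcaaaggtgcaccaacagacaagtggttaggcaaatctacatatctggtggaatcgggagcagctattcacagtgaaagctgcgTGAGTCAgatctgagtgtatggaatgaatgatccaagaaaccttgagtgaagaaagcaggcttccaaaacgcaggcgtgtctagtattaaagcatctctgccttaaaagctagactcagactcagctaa
Celsr2 intron region: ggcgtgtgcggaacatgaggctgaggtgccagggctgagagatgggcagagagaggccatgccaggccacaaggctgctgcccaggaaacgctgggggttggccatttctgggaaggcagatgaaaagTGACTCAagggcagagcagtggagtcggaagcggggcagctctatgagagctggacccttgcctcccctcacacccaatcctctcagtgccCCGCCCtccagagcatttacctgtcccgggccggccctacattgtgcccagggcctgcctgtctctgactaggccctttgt
Vangl2 intron region: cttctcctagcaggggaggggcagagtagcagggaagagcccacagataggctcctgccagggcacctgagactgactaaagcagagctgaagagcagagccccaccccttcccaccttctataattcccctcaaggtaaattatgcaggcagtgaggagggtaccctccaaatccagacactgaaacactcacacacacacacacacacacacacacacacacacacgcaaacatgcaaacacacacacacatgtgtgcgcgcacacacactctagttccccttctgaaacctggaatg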

How the data were processed

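The authors deposited RNA-seq values as raw read counts per gene symbol for 7 libraries, with no normalization. Tallies of unassigned reads at the end of each table were left out. The labels name FastQC and kallisto, but which tool counted the reads is not known. For ATAC-seq the authors deposited a fold enrichment over local background per peak. The deposited peaks carry significance as −log10 p, and as −log10 q after correction, next to an integer score left unused here.

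Counts were normalized with TMM and filtered with filterByExpr in edgeR 4.0.16 under R 4.3.3, leaving 14045 of 24421 genes. A single fit of 7 libraries in 4 groups, without pairing, gave 4 comparisons by the quasi-likelihood F-test, two-sided. It was followed by Benjamini-Hochberg adjustment over all tested genes and gave 95% intervals. The titles number the libraries, but whether the same number in wounded and unwounded skin means the same mouse is not stated. The replicate block, an alternative fit, added this number as a term. P and adjusted p of 0.05 were the thresholds. The biological coefficient of variation was 31.6%. A cell at 0 counts was given the limit of 3 counts, which covers counting error only. The members and lists were chosen with earlier results of these data known. Genes named are all members, *Grhl3*, pathway genes with an unadjusted P under 0.05, the gene with the most counts of each list over all libraries together, and the 3 genes most correlated with *Arhgef19*. Other genes were named after their values were seen.

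Peaks were read with pandas 2.3.3 and set against GENCODE vM21 genes on mm10, and sequences with pysam 0.24.0 from GRCm38.p6 and from the RefSeq promoter table. Alternatives were RLE or library size scaling, DESeq2 1.42.0, 2 other filters, a replicate block, the compared libraries alone, leaving out each library, and for peaks stricter lists and other windows. The tests were run on simulated data as a check.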

Additional observations from a re-analysis of the deposited data

Results flagged for a closer look

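Members and pathway genes are given here where the wound response differed between cKO and WT, either because the libraries of the genotypes moved in opposite directions without overlap or because the test of the difference gave an unadjusted P under 0.05. Of all tested genes, 5.98% were lower after wounding in WT and higher in cKO without overlap, and 4.6% the reverse. An unadjusted P under 0.05 for the difference was seen for 6.77%. No group held enough libraries to look for a single sample far from the others. For *Celsr2* the cKO response minus the WT response was 0.26 on the log2 scale, at a P of 0.315. In CPM *Celsr2* was lower after wounding in WT, and in cKO it went from 365 in the lone library to 368 and 410. Its groups were apart in CPM, but scaled as for the test its WT groups overlapped. For *Scrib* the difference was 0.32 in the same sense, at a P of 0.2545, and neither gene passed the test. In the opposite sense the difference was −0.41 for *Arhgef2* at a P of 0.345, −0.49 for *Mapk9* at a P of 0.253, −0.34 for *Pkn2* at a P of 0.210, −0.48 for *Ppp1r12a* at a P of 0.0920 and −0.47 for *Prkci* at a P of 0.0757. For *Fzd3* the difference was −1.07 at a P of 0.00886, and for *Rhob*, also without overlap, −0.92 at a P of 0.00858. *Prickle2* gave −0.76 at a P of 0.0268 and *Cit* 0.99 at a P of 0.0125. For *Prickle2*, P ran from 0.0670 to 0.133 when WT unwounded replicate 2, WT wounded replicate 1 or cKO wounded replicate 2 was left out. None of the 11 had an adjusted p under 0.05 by edgeR's quasi-likelihood test. All rest on the single unwounded cKO library, which also carries *Xist*, and its part in them cannot be told apart from that of its group.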

How the results depend on the processing

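In all 12 to 14 alternatives of each comparison, DESeq2 included, 0 members passed P under 0.05. Of 530 member values under alternatives, 507 kept their direction and 23 reversed; the smallest P was 0.0715, 0.0843, 0.0855 and 0.133 in the WT, wounded cKO, cKO wound and difference comparisons. A lone library was assumed to vary like the others. The unwounded cKO library is numbered 2 in its title and 1 in its file name, so the replicate block rests on an uncertain number.

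Reversals by setting other than a left-out library were few. In the WT wound response, scaling by library size alone gave −0.0040 for *Celsr1* and the replicate block 0.0016 for *Grhl3*. In the cKO wound response the replicate block gave 0.042 for *Arhgef19*.

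Leaving out each library in turn gave ranges that cross 0 for some members. They were, in the WT wound response, −0.028 to 0.41 for *Vangl2*, −0.087 to 0.11 for *Celsr1*, −0.15 to 0.34 for *Fzd6*, −0.12 to 0.21 for *Dvl2*, −0.16 to 0.019 for *Rhoa* and −0.28 to 0.30 for *Grhl3*. In wounded cKO against WT they were −0.34 to 0.0052 for *Vangl1*, −0.00064 to 0.43 for *Vangl2*, −0.27 to 0.22 for *Fzd6*, −0.022 to 0.25 for *Arhgef19* and −0.13 to 0.051 for *Rhoa*. In the cKO wound response the range was −0.16 to 0.11 for *Arhgef19*. For the difference they were −0.15 to 0.20 for *Vangl1*, −0.11 to 0.32 for *Vangl2* and −0.15 to 0.032 for *Rhoa*.

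Counts of all genes with an adjusted p under 0.05 moved. From 4 in the WT wound response they went to 24 with DESeq2, 96 with no filter, 0 with at least 10 counts in every library, 0 with the compared libraries alone, and 0 to 29 without a library. From 0 in wounded cKO they went to 3 with DESeq2, 51 with no filter and 0 to 21 without a library, and those with P under 0.05 from 567 to between 420 and 855. From 133 in the cKO wound response they went to 252 with DESeq2, 436 with no filter, 28 with at least 10 counts, 213 with the block, 429 with the compared libraries alone, and 33 to 244 without a library. From 26 for the difference they went to 85 with DESeq2, 203 with no filter, 1 with at least 10 counts, 78 with the block, and 11 to 88 without a library. The cause was not tested.

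With lists shortened to the shortest, members with a peak numbered 4 in wounded WT and 4 in unwounded cKO, and peaks near members 5 in wounded WT, 5 in unwounded cKO and 5 in wounded cKO. At a fold enrichment of at least 4 the peaks were 9, 7 and 7 in these lists, and at a −log10 q of at least 2 they were 9 in unwounded cKO. Fewer peaks in the lists make fewer near members by construction.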
